A study of Mus musculus with 5 samples.

Results

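The Rab genes encode small GTPases that mark the membranes of the cell, and their mRNAs were measured in cytoplasm of the embryonic mouse neocortex and in the RNA that came down with the cap-binding protein eIF4E. Members were chosen by name alone: the symbol Rab, a number and at most a letter and a digit, with pseudogenes left out. That gave 59 of the 49875 gene IDs in the deposited table. Of these, 44 reached a value of 1 in 2 or more of the 5 libraries and were tested, and 15 were too low to test.

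A Rab protein switches between a GDP-bound and a GTP-bound form. Exchange factors (GEFs) load GTP and thereby recruit the Rab to its membrane, GTPase-activating proteins, most of them with a TBC domain, switch it off, and the GTP-bound form binds effectors such as tethers, motors and adaptors. Escort proteins and geranylgeranyl transferase attach the lipid anchor, and GDP dissociation inhibitors (GDIs) carry the inactive protein through the cytosol. In the developing cortex, endosomal traffic that depends on Rab5 and Rab11 takes part in the radial migration of newborn neurons.

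The 5 libraries came from wild-type E13.5 embryos, labelled as forebrain and, in the titles, as neocortex. Each started from the cytoplasmic supernatant of dissociated cortical cells that had been lysed gently and spun at low speed. Of the libraries, 2 held RNA precipitated with an eIF4E antibody from MBL (eIF4E), 1 held RNA precipitated with rabbit control immunoglobulin G from Bioss (IgG), and 2 held the unprecipitated fraction (Input). The eIF4E and Input replicates are labelled as biological replicates, but the animals or pools behind them were not named. A p-value here thus speaks only of the spread among these libraries, and how far they are independent is unknown. The table holds RSEM abundances, which are scaled to transcript length, but it does not say whether they are TPM or FPKM. It holds no counts, so the depth behind each value is unknown.

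The libraries were compared on log2(value + 1) with limma over all 12769 genes that passed the filter, with an adjusted p of 0.05 as the threshold. Fold changes are ratios of value + 1 and understate the change of low genes. The lone IgG library was assumed to vary like the others, which no IgG replicate could check. An exact two-sided permutation test of 2 against 2 libraries cannot give a p below 0.333, and none is given for single values.

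Replicates lay close together, and the IgG library stood apart. Pearson's r across genes was 0.989 between the eIF4E libraries and 0.993 between the Input libraries, against 0.593 to 0.707 between IgG and the other 4. The eIF4E libraries had 18677 and 18745 genes above 0, the IgG library 11825 and the Input libraries 17529 and 17412. All 9 neocortex markers, among them Emx1, Tbr1 and Neurod2, were above 0 in every library. Of these, 5 were higher in eIF4E than in Input and 2 lower, where 43.3% of all genes tested were higher and 30.6% lower. All 5 erythroid markers were lower in eIF4E than in Input, with summed values of 5555 and 4249 in eIF4E, 2295 in IgG and 15559 and 16971 in Input. Among them Alas2 was highest in IgG, at 239 against 69.9 and 71.1 in Input. Endothelial and mural markers summed to 50.3 and 51.2 in eIF4E, 0.31 in IgG and 125 and 132 in Input, and in the IgG library Cldn5 and Pdgfrb were listed at 0. Of these 5 markers, 3 were called lower than Input. Kdr measured 3.4 and 3.19 in eIF4E and 3.11 and 3.21 in Input. Microglial markers summed to 18.3 and 17.6 in eIF4E, 22.0 in IgG and 47.8 and 54.7 in Input. In IgG nearly all of that sum was C1qb (21.85), with Csf1r, C1qa and C1qc listed at 0. Of the 5 microglial markers, 4 were called lower than Input. Cx3cr1 measured 1.59 and 1.86 in eIF4E and 1.56 and 1.77 in Input. Meningeal markers summed to 52.6 and 55.8 in eIF4E, 29.5 in IgG and 56.8 and 53.6 in Input. Interneuron lineage markers summed to 37.0 and 34.9 in eIF4E, 49.2 in IgG and 30.6 and 33.1 in Input. Both of these lists held genes called higher and genes called lower than Input. In bulk lysate, fewer cells of a type and less RNA per cell cannot be told apart, and the part of these cell types in the Rab results was not tested.

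As a family the Rabs followed the transcriptome closely, and they split among themselves. Against Input, 22 of the 44 tested Rabs (50%) were higher in the eIF4E precipitate, where 43.3% of all genes tested were higher. Another 9 (20.5%) were lower, where 30.6% of all genes were lower, and 13 did not pass. In either direction 31 passed, as did 73.9% of all genes. The median log2 fold change was 0.30 over the Rabs and 0.16 over all genes. These shares are near the background and are not a result about the family. The counts were also 22 and 9 when the IgG library was left out of the fit. How many Rabs fell on each side depended on the scaling between libraries. The median of all genes moved by 0.22, -0.27 and -0.27 with a common total, with median-of-ratios scaling and with quantile normalization. The counts of higher and lower Rabs were then 27 and 7, 17 and 15, and 18 and 13. Of all genes, 50.9%, 34.6% and 33.7% were then higher and 21.4%, 41.2% and 40.3% lower. The Rab median stayed above that of all genes under these 3 scalings, by 0.14, 0.18 and 0.08. Without Input replicate 2 fewer Rabs passed in each direction, and so did fewer of all genes. The 10 largest rises and all 9 falls against Input turned sign under none of the alternatives run.

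The summed Rab abundance was 2802 and 2780 in the eIF4E libraries, 2200 in IgG and 2806 and 2771 in Input. As a percentage of all abundance in the library this was 0.390 and 0.392 in eIF4E, 0.393 in IgG and 0.335 and 0.327 in Input. Rab1b was the most abundant Rab in each library. In the eIF4E libraries the mean abundance of Rab1b was 454, of Rab11b 408 and of Rab11a 324, and these 3 genes did not overlap between the replicates. Rab1b made up 16.2% and 16.3% of the Rab sum in eIF4E, 20.4% in IgG and 27.3% and 27.7% in Input.

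**Figure D1:**
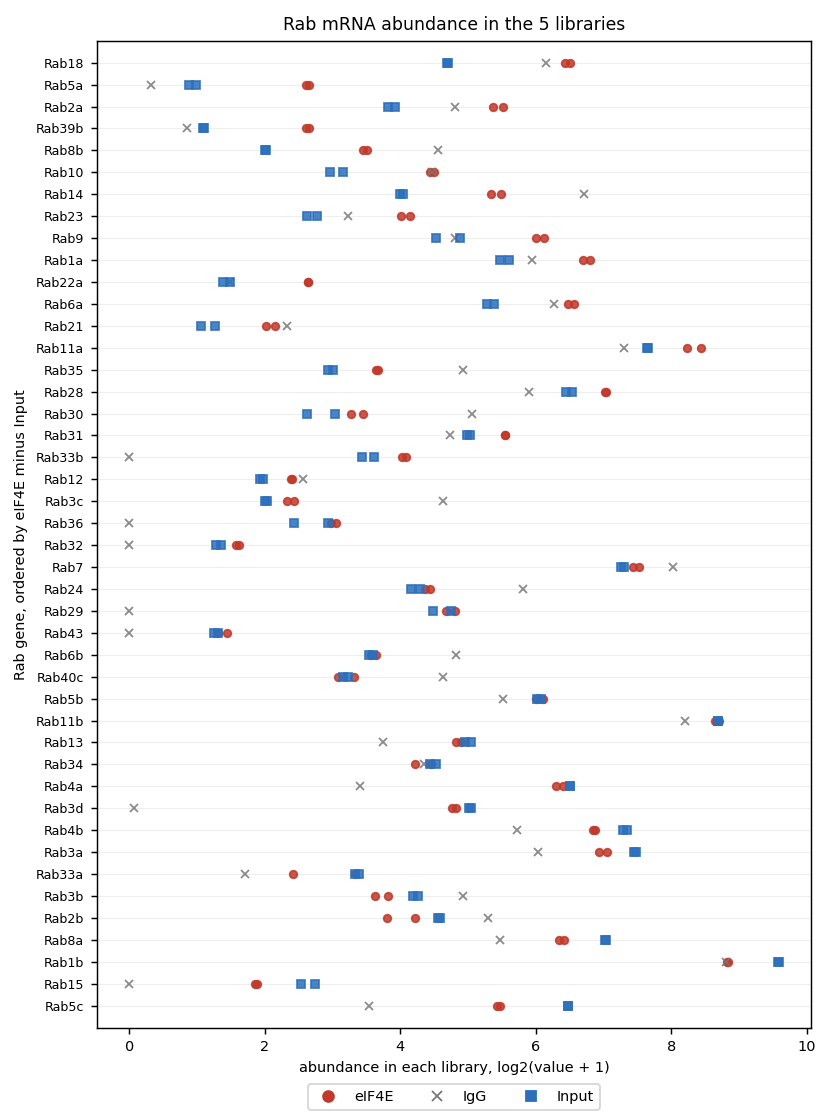
Abundance of the 44 tested Rab genes in each library, as log2(value + 1), with genes ordered by the difference between eIF4E and Input. Red circles are the 2 eIF4E libraries, grey crosses the IgG library and blue squares the 2 Input libraries; the eIF4E circles lie right of the Input squares at the top (Rab18, Rab5a) and left of them at the bottom (Rab15, Rab5c), and the crosses at 0 are Rabs listed at 0 in IgG.

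Among the Rabs of the endoplasmic reticulum (ER) and Golgi, Rab18, which acts at the ER and on lipid droplets, had the largest rise of the family against Input. Rab18 measured 84.9 and 89.7 in the eIF4E libraries, 69.8 in IgG and 25.0 and 24.8 in Input. Both eIF4E libraries were above all others, with IgG nearer to them than to Input. The rise against Input was 3.41-fold (log2 1.77, SE 0.056, adjusted p = 6.83e-05). Against IgG the log2 difference was 0.32 (SE 0.069, adjusted p = 0.0095), a call that was lost with quantile normalization (0.12), and the sign turned with a common library total (-0.027).

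Rab1 proteins drive transport between the ER and the Golgi, and the pair of Rab1 genes moved in opposite directions. Rab1a measured 103 and 110 in eIF4E, 60.6 in IgG and 47.8 and 43.5 in Input, 2.30-fold higher than Input (log2 1.20, SE 0.073, adjusted p = 0.00021). Rab1b measured 454.4 and 453.6 in eIF4E, 449.0 in IgG and 765 and 767 in Input. It was 0.593 times its Input level (log2 -0.75, SE 0.035, adjusted p = 0.00012), with the precipitates together and both Input libraries above them. Against IgG, Rab1a was higher (log2 0.80, adjusted p = 0.00090), and Rab1b had a log2 difference of 0.02 (adjusted p = 0.75). Rab1b passed as lower than IgG with a common total (-0.33) and with quantile normalization (-0.68).

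Rab2 proteins act in the same early secretory steps and showed the same division. Rab2a measured 40.3 and 44.7 in eIF4E, 27.1 in IgG and 14.2 and 13.2 in Input, 2.97-fold higher than Input (log2 1.57, SE 0.082, adjusted p = 0.00015). Rab2b measured 13.0 and 17.6 in eIF4E, 38.1 in IgG and 23.2 and 22.5 in Input, and was lower than Input (log2 -0.56, SE 0.15, adjusted p = 0.023). The eIF4E libraries were the highest for Rab2a and the lowest for Rab2b. The Rab2b call was lost when either Input replicate was left out, at log2 -0.54 without replicate 1 and -0.58 without replicate 2, with a common total, at -0.33, and with no filter, at -0.56. Rab2b shares part of its span with Tox4, and reads from overlapping genes cannot be told apart in libraries that do not mark strand.

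Rab6 proteins move vesicles back through the Golgi. Rab6a measured 88.5 and 93.5 in eIF4E, 76.2 in IgG and 40.6 and 38.0 in Input, and rose 2.28-fold over Input (log2 1.19, SE 0.062, adjusted p = 0.00015). Its neuronal relative Rab6b measured 11.5 and 10.9 in eIF4E, 27.3 in IgG and 11.1 and 10.6 in Input. For Rab6b the eIF4E and Input values overlapped (log2 0.04, SE 0.076, adjusted p = 0.64), and IgG was the highest library. Against Input, Rab6b passed as higher with a common total (0.27). It passed as lower with median-of-ratios scaling (-0.26) and with quantile normalization (-0.39). Rab6a overlaps Mrpl48.

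The other Golgi Rabs were less abundant. Rab33b, which binds the autophagy protein Atg16l1, measured 16.1 and 15.2 in eIF4E and 11.2 and 9.85 in Input, and was listed at 0 in IgG. Its rise over Input was 1.45-fold (log2 0.53, SE 0.10, adjusted p = 0.0077), a call that was lost with median-of-ratios scaling (0.23) and with quantile normalization (0.14). Rab30, a Golgi Rab, measured 9.99 and 8.70 in eIF4E, 32.3 in IgG and 7.17 and 5.18 in Input (log2 0.54 over Input, adjusted p = 0.035). That call was lost without either eIF4E replicate or without Input replicate 2, at log2 0.45, 0.63 and 0.34, and also with median-of-ratios scaling (0.25), with quantile normalization (0.05) and with no filter on low values (0.54). Rab33a was the least repeatable Rab, with 9.03 and 4.33 in eIF4E, 2.26 in IgG and 9.50 and 9.03 in Input, and did not pass against Input (adjusted p = 0.22). Without eIF4E replicate 1, the higher of the pair, its log2 difference was -0.95 and passed. Rab43 measured 1.72 and 1.49 in eIF4E and 1.38 and 1.49 in Input, and was listed at 0 in IgG.

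The products of the early endosomal Rab5 genes drive the fusion of early endosomes. On log2(value + 1) these genes held both the second largest rise and the largest fall. Rab5a measured 5.28 and 5.10 in eIF4E, 0.25 in IgG and 0.84 and 0.98 in Input. Rab5c measured 43.3 and 42.1 in eIF4E, 10.7 in IgG and 87.8 and 88.3 in Input. Rab5a thus rose 3.24-fold over Input (log2 1.70, SE 0.11, adjusted p = 0.00026), and Rab5c was 0.491 times its Input level (log2 -1.03, SE 0.053, adjusted p = 0.00015). Rab5b, the middle case, measured 63.0 and 67.8 in eIF4E, 45.0 in IgG and 66.8 and 63.7 in Input, and the eIF4E and Input libraries overlapped (log2 0.0021, SE 0.063, adjusted p = 0.98). Against Input, Rab5b passed as higher with a common total (0.24) and as lower with median-of-ratios scaling (-0.32). All 3 were higher in eIF4E than in IgG, by log2 2.31 for Rab5a, 0.53 for Rab5b and 1.91 for Rab5c (adjusted p = 0.00011, 0.0024 and 3.0e-05), and the Rab5b call was lost with a common total, at 0.19. Rab5a overlaps Pp2d1 and Rab5b overlaps Pmel.

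The other early endosomal Rabs that were tested were all higher in eIF4E than in Input, where 43.3% of all genes were higher. Rab22a measured 5.21 and 5.21 in eIF4E, 1.81 in IgG and 1.62 and 1.81 in Input (2.29-fold over Input, adjusted p = 0.00057). Rab21, which sorts integrins, measured 3.46 and 3.07 in eIF4E, 4.00 in IgG and 1.41 and 1.09 in Input (1.90-fold over Input, adjusted p = 0.0027). Rab31 measured 45.7 and 45.7 in eIF4E, 25.5 in IgG and 31.7 and 30.6 in Input (1.45-fold over Input, adjusted p = 0.0010). In none of the 3 did the eIF4E values overlap those of Input, and how many of all genes share this was not counted. For Rab21 the IgG value lay above both eIF4E libraries.

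The recycling Rabs include the abundant Rab11 genes, whose products return cargo from recycling endosomes to the surface. Rab11a measured 347 and 301 in eIF4E, 157 in IgG and 201 and 199 in Input, 1.61-fold higher than Input (log2 0.69, SE 0.079, adjusted p = 0.0014). Rab11b measured 417 and 400.3 in eIF4E, 293 in IgG and 414 and 413 in Input. For Rab11a both eIF4E libraries were above the other 3, and for Rab11b they lay on either side of Input (log2 -0.02, SE 0.041, adjusted p = 0.70). Rescaling made Rab11b pass in opposite directions. It was higher than Input with a common total (0.22) and with quantile normalization (0.25), and lower with median-of-ratios scaling (-0.34). A pseudogene of Rab11b, Rab11b-ps2, carried 12.4 and 18.3 in eIF4E, 8.61 in IgG and 13.8 and 17.0 in Input, and RSEM divides reads that match both.

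Rab14, which links the Golgi and recycling endosomes, measured 43.9 and 39.6 in eIF4E, 104 in IgG and 15.0 and 15.5 in Input. It rose 2.63-fold over Input (log2 1.40, SE 0.074, adjusted p = 0.00016) and was lower than IgG (log2 -1.30, adjusted p = 0.00019). Rab35, which works in recycling and cytokinesis, had the same order, with 11.5 and 11.7 in eIF4E, 29.4 in IgG and 7.07 and 6.67 in Input (1.60-fold over Input, adjusted p = 0.0013, a call lost with quantile normalization at log2 0.22). In both genes the control precipitate held more than the eIF4E precipitate.

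The Rab4 genes act in fast recycling. Rab4b measured 114 and 116 in eIF4E, 51.6 in IgG and 161 and 155 in Input, and was 0.728 times its Input level (adjusted p = 0.0010). Rab4a measured 77.5 and 83.3 in eIF4E, 9.58 in IgG and 89.7 and 89.9 in Input, and did not pass against Input (log2 -0.16, adjusted p = 0.063); without eIF4E replicate 2 it passed, at -0.21. Rab15, a recycling Rab of neural tissue, measured 2.69 and 2.64 in eIF4E and 5.72 and 4.77 in Input, with IgG listed at 0, and was 0.589 times its Input level (log2 -0.76, adjusted p = 0.0044). The eIF4E values of these 3 genes lay below both Input values and above IgG.

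Rab7, the Rab of late endosomes and lysosomes, differed little between eIF4E and Input. It measured 173 and 183 in eIF4E, 261 in IgG and 152 and 157 in Input, 1.15-fold over Input (log2 0.20, SE 0.050, adjusted p = 0.018). The sign turned to -0.12 with median-of-ratios scaling, and the call was lost without either Input replicate, at 0.18 without replicate 1 and 0.22 without replicate 2, and without the variance trend, at 0.20. The IgG library was the highest for Rab7, and eIF4E was lower than IgG (log2 -0.55, adjusted p = 0.00087).

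Other late endosomal Rabs rose more. Rab9, which returns receptors from late endosomes to the Golgi, measured 63.3 and 68.8 in eIF4E, 27.2 in IgG and 28.6 and 22.0 in Input, 2.57-fold over Input (log2 1.36, SE 0.14, adjusted p = 0.00093). Rab39b, a neuronal Rab mutated in a human X-linked intellectual disability, measured 5.27 and 5.09 in eIF4E, 0.80 in IgG and 1.16 and 1.12 in Input, 2.89-fold over Input (log2 1.53, SE 0.10, adjusted p = 0.00028). Both genes were highest in the eIF4E libraries, and the IgG value lay within or just below the Input pair. Rab12, which sends receptors towards lysosomes, measured 4.25 and 4.29 in eIF4E, 4.89 in IgG and 2.93 and 2.82 in Input (log2 0.44 over Input, adjusted p = 0.011). Its call was lost without Input replicate 2, at 0.42, and with median-of-ratios scaling, at 0.19, and its sign turned with quantile normalization, at -0.14.

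The remaining 5 of this group did not pass against Input. Rab29, which recruits the kinase Lrrk2, measured 24.4 and 27.0 in eIF4E and 25.9 and 21.5 in Input, with IgG listed at 0 (adjusted p = 0.41). Rab36 measured 7.31 and 6.86 in eIF4E and 6.65 and 4.41 in Input, also with IgG at 0 (adjusted p = 0.18), and passed without Input replicate 1 at log2 0.58. Rab32, known from melanosomes and other lysosome-related organelles, measured 2.06 and 1.99 in eIF4E and 1.44 and 1.55 in Input, again with IgG at 0 (adjusted p = 0.077). Rab36 and Rab32 did not overlap between eIF4E and Input, while Rab29 did. Rab24, linked to autophagy, measured 19.6 and 20.8 in eIF4E, 55.4 in IgG and 17.0 and 18.7 in Input (adjusted p = 0.11). Rab34, which positions lysosomes and acts in cilium formation, measured 17.6 and 20.9 in eIF4E, 19.4 in IgG and 22.1 and 20.7 in Input. It passed in no comparison without rescaling. Against Input it passed as lower with median-of-ratios scaling (log2 -0.46) and with quantile normalization (-0.42). For IgG against Input, Rab34 passed as higher with a common total (0.44). There it passed as lower with median-of-ratios scaling (-0.40) and with quantile normalization (-0.47).

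Among 8 tested Rabs of exocytosis, 4 were lower than Input and 3 were higher, where 30.6% of all genes were lower and 43.3% higher. Rab3a, the main Rab of synaptic vesicles, measured 132 and 122 in eIF4E, 64.5 in IgG and 175 and 177 in Input. It was 0.722 times its Input level (log2 -0.47, SE 0.056, adjusted p = 0.0016). Rab3b measured 13.2 and 11.3 in eIF4E, 29.5 in IgG and 17.2 and 18.2 in Input (log2 -0.50, adjusted p = 0.0077). Both Rab3a and Rab3b lay below Input in the eIF4E libraries, and IgG was the lowest library for Rab3a and the highest for Rab3b. The Rab3b call was lost without Input replicate 2, at log2 -0.46. Rab3d, a Rab of secretory granules, measured 27.2 and 26.1 in eIF4E, 0.05 in IgG and 32.1 and 31.3 in Input (log2 -0.24, adjusted p = 0.032). Leaving out any 1 of the eIF4E or Input libraries ended the Rab3d call, with log2 values between -0.27 and -0.21, and with a common total the value was -0.0085. Rab3c measured 4.02 and 4.39 in eIF4E, 23.8 in IgG and 3.10 and 3.00 in Input (log2 0.36, adjusted p = 0.021). That call was lost without eIF4E replicate 2 (0.31), without either Input replicate (0.38 and 0.34) with the replicate number as a block (0.36) and with median-of-ratios scaling (0.11), and its sign turned with quantile normalization, at -0.26.

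Rab8 and Rab10 carry vesicles to the plasma membrane and the cilium. Rab8a measured 80.1 and 84.2 in eIF4E, 43.4 in IgG and 131 and 129 in Input, 0.636 times its Input level (log2 -0.65, SE 0.051, adjusted p = 0.00041). Rab8b measured 10.4 and 9.92 in eIF4E, 22.5 in IgG and 3.05 and 3.02 in Input, 2.77-fold over Input (log2 1.47, SE 0.083, adjusted p = 0.00018). The Rab8 pair thus moved in opposite directions against Input, and the IgG library differed from Input in the same sense for each gene. Rab10 measured 20.6 and 21.5 in eIF4E, 21.1 in IgG and 6.84 and 7.91 in Input, 2.64-fold over Input (log2 1.40, SE 0.093, adjusted p = 0.00027). For Rab10 the eIF4E and IgG precipitates overlapped (log2 -0.0042, adjusted p = 0.98). With a common total, Rab10 passed as lower than IgG (log2 -0.34). Rab13, a Rab of tight junctions, measured 27.2 and 28.9 in eIF4E, 12.4 in IgG and 30.0 and 32.0 in Input, and did not pass against Input (adjusted p = 0.13).

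The last group holds Rabs of cilia and of other roles. Rab23, a negative regulator of hedgehog signalling, measured 15.2 and 16.6 in eIF4E, 8.36 in IgG and 5.16 and 5.83 in Input, 2.61-fold over Input (log2 1.38, SE 0.099, adjusted p = 0.00033). Rab28, which acts in cilia of sensory cells, measured 129 and 131 in eIF4E, 58.9 in IgG and 91.5 and 85.9 in Input (1.46-fold over Input, adjusted p = 0.00082). Both were highest in the eIF4E libraries and did not overlap the other groups. Rab40c, whose product joins a ubiquitin ligase, measured 8.98 and 7.5 in eIF4E, 23.8 in IgG and 7.89 and 8.38 in Input, and did not pass against Input (adjusted p = 0.92).

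**Figure D2:**
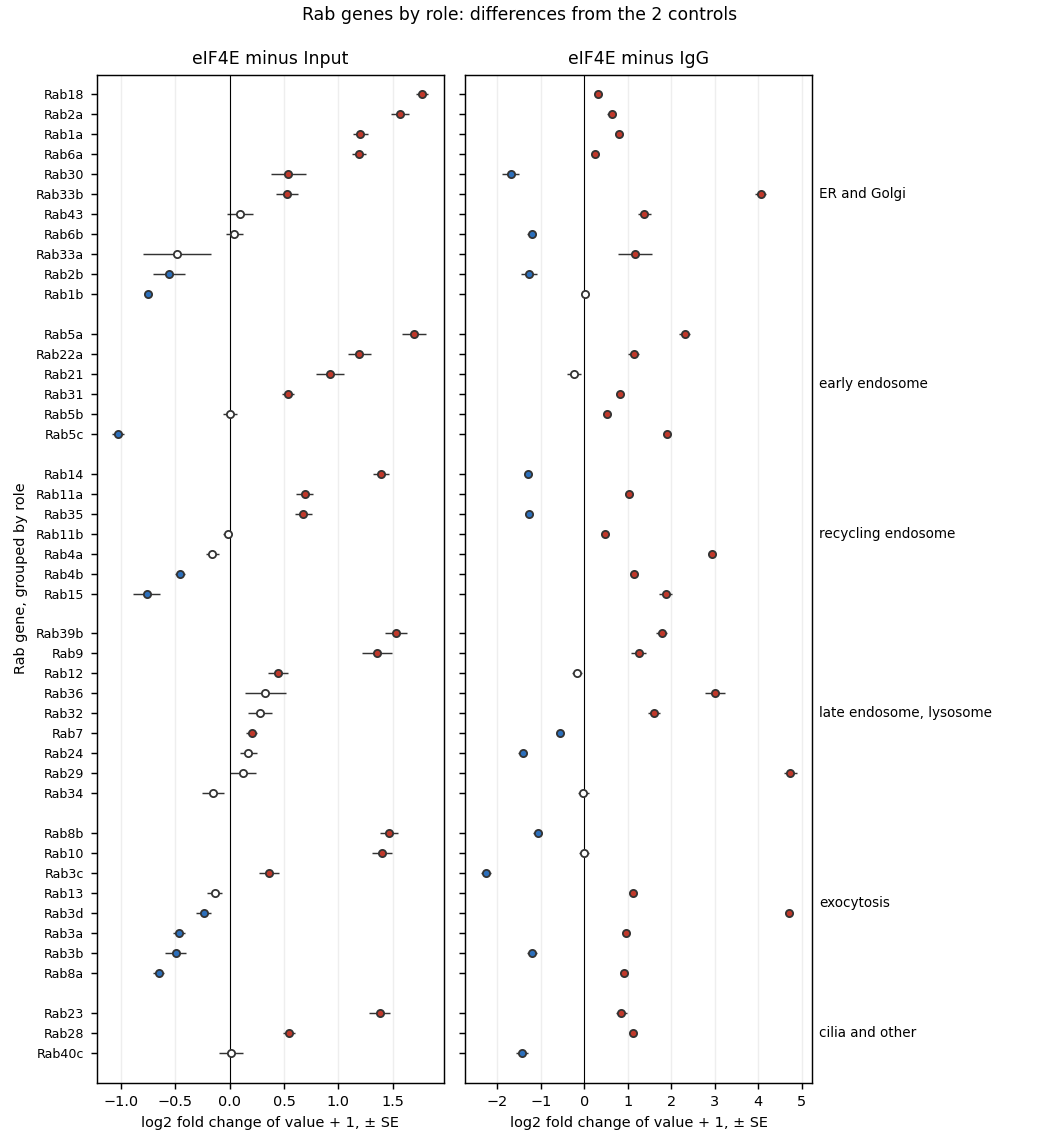
Log2 fold changes of value + 1 for the 44 tested Rab genes, grouped by role, for eIF4E minus Input (left) and eIF4E minus IgG (right), with bars of 1 SE; the horizontal scales of the panels differ. Filled points passed the threshold (red higher, blue lower in eIF4E) and open points did not; against Input the values run from -1.03 (Rab5c) to 1.77 (Rab18), and against IgG from -2.25 (Rab3c) to 4.74 (Rab29).

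By role, recycling Rabs held the largest share of the Rab sum in eIF4E, and ER and Golgi Rabs held it in IgG and Input. Late endosomal and lysosomal Rabs made up 11.4% and 12.2% in eIF4E, 16.7% in IgG and 9.23% and 9.03% in Input. Exocytosis Rabs made up 11.3% and 11.1% in eIF4E, 10.3% in IgG and 14.2% and 14.5% in Input. Recycling Rabs made up 36.2% and 34.3% in eIF4E, 29.3% in IgG and 31.9% and 31.9% in Input. Much of that group was Rab11a, at 12.4% and 10.8% of the Rab sum in eIF4E, 7.14% in IgG and 7.18% and 7.17% in Input. Its larger member Rab11b was at 14.9% and 14.4% in eIF4E, 13.3% in IgG and 14.8% and 14.9% in Input. ER and Golgi Rabs made up 29.7% and 30.6% in eIF4E, 35.6% in IgG and 34.1% and 34.1% in Input, a sum in which the rise of Rab1a, Rab2a, Rab6a and Rab18 was set against the fall of the far more abundant Rab1b. Early endosomal Rabs made up 5.93% and 6.08% in eIF4E, 3.96% in IgG and 6.79% and 6.73% in Input. Rabs of cilia and other roles made up 5.54% and 5.62% in eIF4E, 4.14% in IgG and 3.77% and 3.65% in Input. In each role group the eIF4E pair did not overlap the Input pair.

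**Figure D3:**
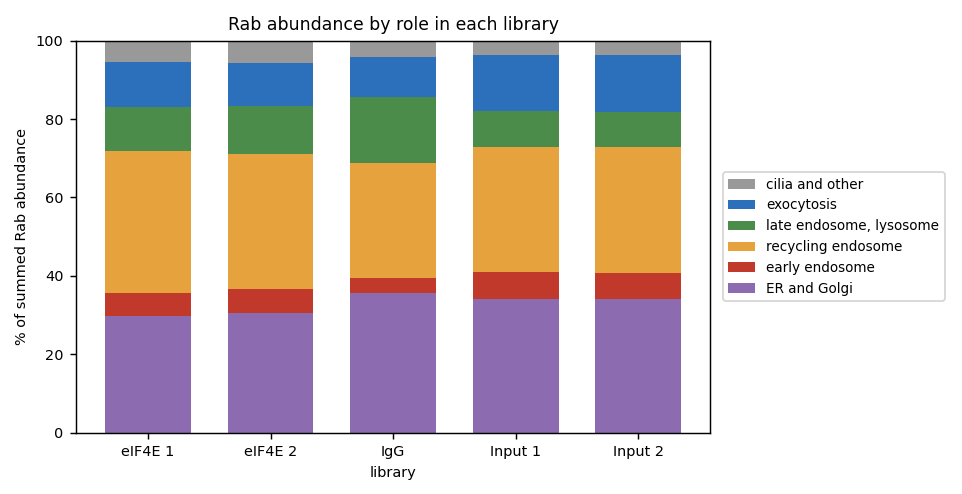
Percent of the summed Rab abundance held by each role group (stacked colours) in each of the 5 libraries. Recycling Rabs take 36.2% and 34.3% in the eIF4E libraries, 29.3% in IgG and 31.9% in each Input library, and exocytosis Rabs take less in both precipitates than in Input.

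Shares within a number family compare paralogs in the same library and do not depend on the scaling between libraries. Rab1a made up 18.4% and 19.6% of the Rab1 abundance in eIF4E, 11.9% in IgG and 5.88% and 5.37% in Input. Rab2a made up 75.6% and 71.7% of Rab2 in eIF4E, 41.6% in IgG and 38.0% and 36.9% in Input, so the more abundant Rab2 gene was Rab2a in eIF4E and Rab2b in Input. Rab5a made up 4.73% and 4.44% of Rab5 in eIF4E, 0.447% in IgG and 0.540% and 0.641% in Input. In these 3 families the eIF4E share of the named gene lay above both controls. Rab5c made up 38.8% and 36.6% of Rab5 in eIF4E, 19.1% in IgG and 56.5% and 57.7% in Input.

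Rab6a made up 88.5% and 89.6% of Rab6 in eIF4E, 73.7% in IgG and 78.5% and 78.2% in Input. Rab11a made up 45.5% and 42.9% of Rab11 in eIF4E, 34.9% in IgG and 32.7% and 32.5% in Input. In both, the eIF4E share was the highest of the 3 groups. Rab8b made up 11.5% and 10.5% of Rab8 in eIF4E, 34.1% in IgG and 2.28% and 2.29% in Input, so here the IgG share was the highest. Rab4a made up 40.5% and 41.7% of Rab4 in eIF4E, 15.7% in IgG and 35.8% and 36.7% in Input. Within Rab3, Rab3a took 74.8% and 74.4% in eIF4E, 54.7% in IgG and 76.9% and 77.1% in Input, while Rab3c took 2.28% and 2.68% in eIF4E, 20.2% in IgG and 1.37% and 1.31% in Input.

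**Figure D4:**
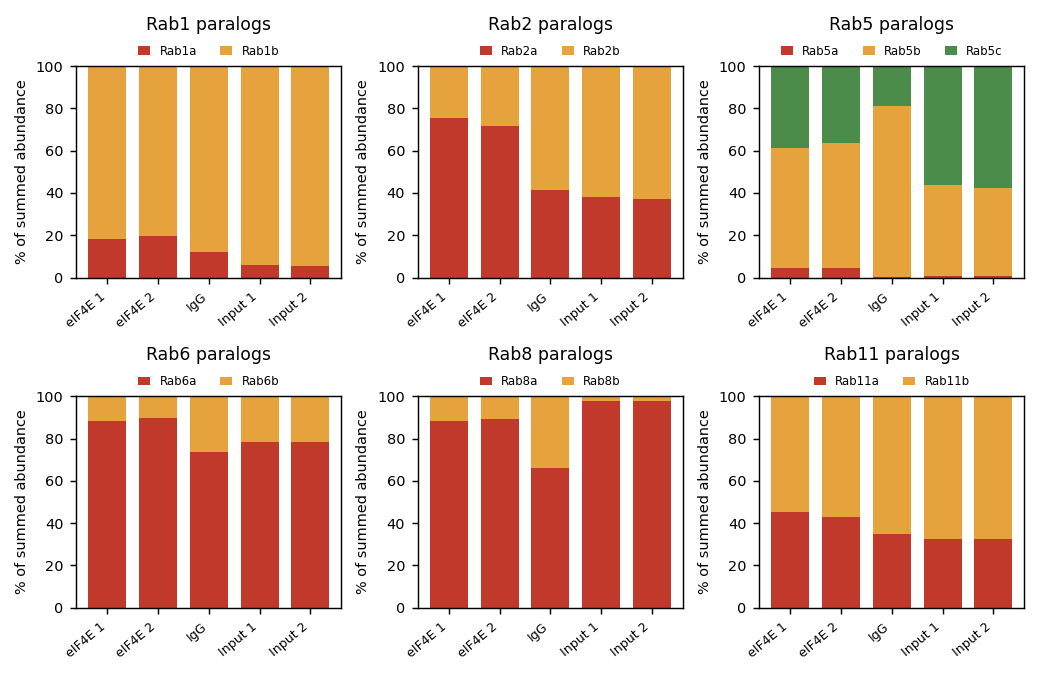
Percent of the summed abundance of 6 Rab number families held by each paralog (stacked colours) in each library. Rab2a takes 75.6% and 71.7% in the eIF4E libraries, 41.6% in IgG and 38.0% and 36.9% in Input, and Rab8b takes 11.5% and 10.5% in eIF4E, 34.1% in IgG and 2.28% and 2.29% in Input.

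Because eIF4E binds the cap, the bases around the annotated transcription start are shown for the Rab1, Rab5 and Rab8 paralogs, which differed in direction against Input, and for Rab9 and Rab33b, which hold the start pattern described after them. Each runs from 10 bases before to 20 bases after it. They were taken from the RefSeq promoter table of GRCm38.p6 on the strand of the gene, and capitals mark the first 5 bases from the start. Not shown are the Rab2 and Rab3 genes, which also differed in direction, and Rab33a, which also holds the pattern.
Rab1a: aggcttccccAGTTCctggttcgccggcgg
Rab1b: caaccatcttGGAACgggaggcggagcaga
Rab5a: cgctgcgtgcGGCTAcgtggcggagccggc
Rab5b: aggaggaggcGAAGGgggtaggagtttggt
Rab5c: gaggcggggcAGAGCtgaagatccggatcc
Rab8a: tttttcccctGGGCTctctgcgacaggcgg
Rab8b: ccccctcgccAGAGGccccccctccgcgct
Rab9: cgacctacagCTCCTggcctggtgctaccg
Rab33b: tctctccccgCCCCCgggggctgcgcagct
The windows lie at chr11:20201402-20201431 (plus strand) for Rab1a, chr19:5106977-5107006 (minus) for Rab1b, chr17:53479224-53479253 (plus) for Rab5a, chr10:128696249-128696278 (minus) for Rab5b and chr11:100738196-100738225 (minus) for Rab5c. Those of Rab8a and Rab8b lie at chr8:72161190-72161219 (plus) and chr9:66919686-66919715 (minus), and those of Rab9 and Rab33b at chrX:166479848-166479877 (minus) and chr3:51483956-51483985 (plus).

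Of the 44 tested Rabs, 39 matched a promoter in that table. A C at the start followed by at least 4 pyrimidines (C or T), the pattern at the start of terminal oligopyrimidine mRNAs, was read on the gene's strand. It stood in 3 of the 39 (7.69%), namely Rab9, Rab33b and Rab33a, against 2.48% of all 27025 promoters in the table and 2.37% of the 9628 of tested genes. Of these 3, Rab9 and Rab33b were higher in eIF4E than in Input and Rab33a did not pass. None of the Rab1, Rab5 and Rab8 genes held it, whichever way they moved. The window from 250 bases before to 50 bases after the start held CACGTG, which reads the same on both strands, in 4 of the 39 (10.3%: Rab5a, Rab21, Rab23 and Rab24), against 7.24% of all promoters and 10.3% of those of tested genes. The GC box GGGCGG, searched on both strands, was in 28 (71.8%) against 35.9% of all promoters and 66.6% of those of tested genes. CCAAT, on both strands, was in 19 (48.7%) against 38.0% of all and 40% of tested genes, and TATAAA, on both strands, in 3 (7.69%) against 14.2% of all and 6.44% of tested genes. None of the patterns contains another. These matches describe letters in a window and no more.

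Rabs with longer genomic spans tended to have larger fold changes of eIF4E over Input. Spearman's rho between the RefSeq gene span and the log2 fold change was 0.367 over the 44 Rabs and 0.401 over 12396 genes tested with a span. The points share the same 4 libraries, and genes are not independent replicates. The median span was 28.0 kb in the 22 Rabs that were higher, 17.6 kb in the 9 that were lower and 17.9 kb in the 13 that did not pass. Rab3a, at chr8:70754703-70758608, spans 3.91 kb and was lower, while Rab8b, at chr9:66843609-66919705, spans 76.1 kb and was higher. Rab39b, at chrX:75572045-75578231, spans 6.19 kb and was among the largest rises, so the order is loose. The GC percent of the promoter window gave a rho of 0.03 over 39 Rabs and 0.07 over 9628 genes. The median Input abundance was 8.95 in the Rabs that were higher and 88.1 in those that were lower, and the rho between log2 Input level and fold change was -0.42, in which Input enters both quantities.

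Against the control precipitate, 28 of 44 Rabs (63.6%) were higher in eIF4E, where 53.1% of all genes were higher, and 11 (25.0%) were lower, where 30.6% were lower. In either direction 39 passed, as did 83.8% of all genes. The median log2 difference was 0.81 over the Rabs and 0.55 over all genes, and the counts were 22 and 15 with a common total and 20 and 15 with quantile normalization. Of all genes, 47.5% and 36.1% were then higher and 37.7% and 37.9% lower. The largest differences were those of Rab29 (log2 4.74, adjusted p = 2.5e-05), Rab3d (4.72, adjusted p = 1.2e-05), Rab33b (4.06, adjusted p = 2.4e-05), Rab36 (3.01, adjusted p = 0.00027) and Rab4a (2.94, adjusted p = 1.7e-05). Of these, Rab29, Rab33b and Rab36 were listed at 0 in IgG, so their fitted values depend on the added 1, and Rab3d was at 0.05. Rab15, Rab32 and Rab43 were listed at 0 in IgG as well, which makes 6 of the 44, and no tested Rab was at 0 in any other library. Zeros were more frequent in IgG over the whole table too. Of all genes, 11825 were above 0 in IgG and 17412 to 18745 in the other libraries. Of all 59 Rabs, 40 were above 0 in IgG and 55 or 56 in the others. The share of all tested genes at 0 in IgG was not counted. Only 1 IgG library exists, and a 0 in it can also be a failed estimate.

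The Rabs lowest in eIF4E against IgG were Rab3c (log2 -2.25, adjusted p = 7.8e-05), Rab30 (-1.69, adjusted p = 0.0011), Rab40c (-1.43, adjusted p = 0.00050), Rab24 (-1.42, adjusted p = 0.00018), Rab14 (-1.30, adjusted p = 0.00019) and Rab2b (-1.27, adjusted p = 0.0022). Rab8b, which was higher than Input, was also lower than IgG (log2 -1.07, adjusted p = 0.00052). Among the 10 largest rises against Input, Rab18, Rab5a, Rab2a, Rab39b, Rab23, Rab9 and Rab1a were higher than IgG too, Rab8b and Rab14 were lower than IgG, and Rab10 did not pass. With a common total Rab18 turned sign against IgG, as given above, and the Rab2a call was lost, at 0.29. Rab6a was also called higher than IgG (log2 0.25, adjusted p = 0.030), but its sign turned to -0.095 with a common total, and the call was lost without eIF4E replicate 2, at 0.21, or without either Input replicate, where the value was again 0.25. It was lost too with median-of-ratios scaling (0.21), with quantile normalization (0.034), with no filter (0.25) and without the variance trend (0.25). The call of Rab33a (log2 1.17, adjusted p = 0.039) was lost without either Input replicate (1.17), with a common total (0.96), with quantile normalization (0.30), with an added constant of 5 (0.66), with no filter (1.17) and without the variance trend (1.17).

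The IgG precipitate itself differed from Input in most Rabs. In IgG, 19 Rabs (43.2%) were higher than Input, where 37.8% of all genes were higher, and 21 (47.7%) were lower, where 50.3% were lower. In either direction 40 passed, as did 88.1% of all genes. With a common total or with quantile normalization the counts were 23 and 16 in each, and with median-of-ratios scaling they were 16 and 23. Of all genes, 45.6%, 39.5% and 34% were then higher and 42.8%, 40.5% and 54.1% lower. The eIF4E and IgG comparisons with Input share the Input libraries. Rab18, for example, was higher in IgG than in Input by log2 1.45 (adjusted p = 4.2e-05), Rab14 by 2.69 (adjusted p = 1.8e-05) and Rab10 by 1.40 (adjusted p = 0.00024), while Rab5c fell by 2.93 on that scale (adjusted p = 8.8e-06).

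The 15 Rabs that were not tested were low. Rab19 was listed at 0 in all 5 libraries. Rab27b, a Rab of secretory granules, was at 0.35 and 0.17 in eIF4E, 8.59 in IgG and 0.25 and 0.19 in Input, so that 1 library held nearly all of its signal. Rab39, the relative of Rab39b, was at 1.28 and 0.88 in eIF4E, 0 in IgG and 0.27 and 0.18 in Input, and Rab9b, the relative of Rab9, at 0.37 and 0.45 in eIF4E, 0 in IgG and 0.02 in each Input library. For both the eIF4E values lay above the others, at levels too low to test. The other 11 (Rab7b, Rab17, Rab20, Rab25, Rab26, Rab27a, Rab37, Rab38, Rab40b, Rab42 and Rab44) did not exceed 1.3 in any library.

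Genes that act on Rabs were read from lists. Among 7 tested genes for escort, prenylation and GDI, 4 were higher and 3 lower in eIF4E than in Input, where 43.3% of all genes were higher and 30.6% lower. Chm, the escort protein Rep1, measured 3.26 and 4.02 in eIF4E, 2.13 in IgG and 0.37 and 0.20 in Input, and Rabggtb, a subunit of the prenylating enzyme, measured 107 and 108 in eIF4E, 138 in IgG and 43.6 and 42.1 in Input. They rose 3.61-fold and 2.48-fold over Input (adjusted p = 0.00044 and 8.3e-05). The Rab acceptor Rabac1 measured 7.01 and 4.54 in eIF4E, 0.69 in IgG and 11.5 and 11.6 in Input, and was 0.531 times Input (adjusted p = 0.011). Its call was lost without either Input replicate, at log2 -0.91 in each case, and with no filter, at the same value. No call as lower in the list held without either Input replicate, and fewer of all genes were called lower there too. With a common total 4 genes of the list were higher and 1 lower, where 50.9% of all genes were higher and 21.4% lower.

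Of 44 tested Rab GEF genes, 21 were higher and 9 lower (median log2 0.30), and of 35 TBC-domain genes, 18 were higher and 8 lower (median log2 0.47), where 43.3% and 30.6% of all genes were higher and lower. With quantile normalization the counts were 15 and 15 for the GEF genes and 11 and 13 for the TBC-domain genes, and with median-of-ratios scaling 17 and 12, and 14 and 12. With a common total they were 28 and 7, and 21 and 3. Of all genes, 33.7% were higher and 40.3% lower with quantile normalization, and 34.6% and 41.2% with median-of-ratios scaling. With a common total the shares were 50.9% and 21.4%. Subunits of the TRAPP complexes, which activate Rab1 and Rab11, were found on both sides. Trappc8 measured 4.74 and 5.16 in eIF4E, 7.45 in IgG and 0.14 and 0.29 in Input (4.90-fold over Input, adjusted p = 0.00016), and Trappc2 rose 3.55-fold (adjusted p = 0.00049). Trappc9 measured 10.3 and 10.4 in eIF4E, 15.2 in IgG and 23.6 and 24.2 in Input (0.456 times Input, adjusted p = 0.00020), and Trappc2l was 0.455 times Input (adjusted p = 0.0026). Among TBC-domain genes, Tbck rose 3.72-fold and Usp6nl, a GAP for Rab5, 3.64-fold (adjusted p = 0.00012 and 0.00014). For Usp6nl the IgG library held more, at 17.6 against 8.95 and 8.4 in eIF4E. For Tbck it held less, at 6.76 against 16.2 and 15.6. Tbc1d17 was 0.560 and Tbc1d25 0.562 times Input (adjusted p = 0.00082 and 0.0071). The Tbc1d25 call was lost without either Input replicate, at log2 -0.85 without replicate 1 and -0.82 without replicate 2. Without any 1 of the eIF4E or Input libraries, fewer TBC-domain genes were called lower, and so were fewer of all genes. Such a fit leaves 1 library in a group.

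Of 40 tested effectors, 24 (60.0%) were higher in eIF4E than in Input and 6 (15.0%) lower, where 43.3% of all genes were higher and 30.6% lower. Their median log2 was 0.86 beside 0.16 over all genes. The counts were 27 and 3 with a common total, 22 and 10 with median-of-ratios scaling and 20 and 11 with quantile normalization. Of all genes, 50.9%, 34.6% and 33.7% were then higher and 21.4%, 41.2% and 40.3% lower. Without either eIF4E replicate fewer effectors were called lower, and so were fewer of all genes. Bicd1, a dynein adaptor of Rab6, measured 15.3 and 18.2 in eIF4E, 101 in IgG and 1.13 and 1.64 in Input. Rabep1, an effector of Rab5, measured 55.2 and 58.6 in eIF4E, 77.6 in IgG and 7.03 and 7.14 in Input. These were 7.46-fold and 7.16-fold rises over Input (adjusted p = 0.00014 and 5.4e-05), and in both genes IgG held the highest value. Rabep2, the paralog of Rabep1, measured 15.7 and 17.5 in eIF4E, 27.2 in IgG and 32.3 and 28.3 in Input (0.561 times Input, adjusted p = 0.0015), and Golga2 (GM130) was 0.560 times Input (adjusted p = 0.0025). Against IgG, where 53.1% of all genes were higher and 30.6% lower, the effectors had 13 higher, 23 lower and a median log2 of -0.40 beside 0.55 over all genes. Under quantile normalization 6 were higher and 28 lower, where 36.1% of all genes were higher and 37.9% lower.

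Of 5 tested Rab-like genes none was higher in eIF4E than in Input and 3 were lower, where 43.3% of all genes were higher and 30.6% lower. With median-of-ratios scaling 5 were lower, where 41.2% of all genes were lower. With no filter 1 was higher, where 27.7% of all genes were higher. The 2 with the lowest fold changes were Ift22 at 102 and 75.2 in eIF4E, 22.5 in IgG and 191 and 212 in Input, and Ift27 at 102 and 99 in eIF4E, 15.5 in IgG and 157 and 152 in Input. Both encode small GTPases of intraflagellar transport and were 0.438 and 0.653 times Input (adjusted p = 0.0022 and 0.00046). The Arf and Arl GTPases, the other large family of membrane traffic switches, had 12 of 25 higher and 8 lower. These counts became 15 and 6 with a common total and 11 and 12 with median-of-ratios scaling. Of all genes, 50.9% and 34.6% were then higher and 21.4% and 41.2% lower. Arl5a rose 5.84-fold and Trim23, which has an Arf domain, 5.18-fold (adjusted p = 7.6e-05 and 0.00022), while Arf5 was 0.439 and Arl2 0.494 times Input (adjusted p = 0.00026 and 0.00011). For Arl5a the IgG library held more, at 35.9 against 11.5 and 11.4 in eIF4E. Trim23 was listed at 0 in IgG, with 11.0 and 12.4 in eIF4E.

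**Figure D5:**
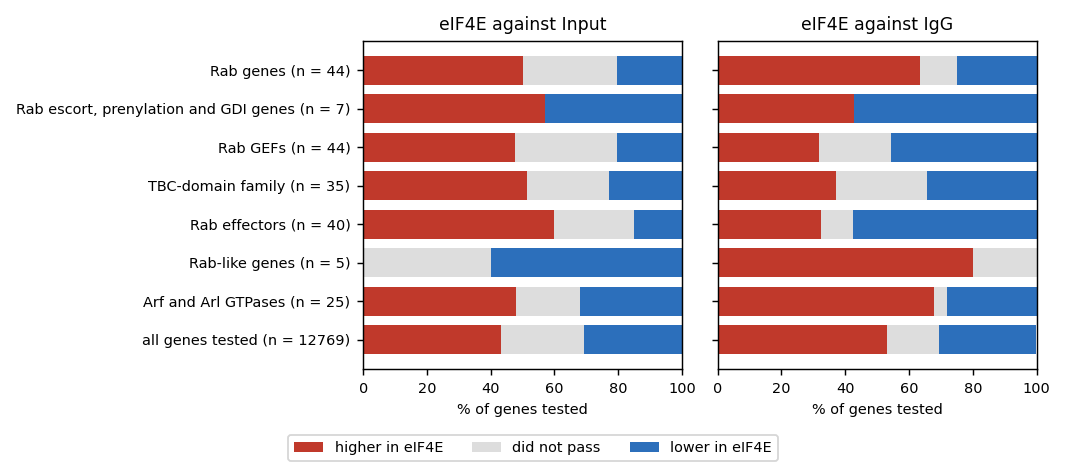
Percent of the tested genes of each list that were higher in eIF4E (red), did not pass (grey) or were lower in eIF4E (blue), against Input on the left and against IgG on the right, with all genes tested in the lowest bar. Rab effectors were higher in 60.0% against Input and lower in 57.5% against IgG, and the Rab genes lie at 50% higher against Input beside 43.3% of all genes.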

How the data were processed

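Libraries were made from poly(A)-primed cDNA by Smart-seq2, per the labels' protocols, which marks neither strand nor molecules. Alignment and quantification used mm10, STAR 2.7.9a and RSEM 1.3.3, per the submitters' processing notes. The values deposited by the authors are abundances that are never negative and not on a log scale; the choice between TPM and FPKM, the annotation and any filter were not given in the sources used here. No counts or coverage were used, so no counting interval is given.

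Of 50161 rows, 286 exact repeats of a gene ID were removed. Genes at 1 or more in 2 or more libraries were fitted as log2(value + 1) with limma 3.58.1 in R 4.3.3 (3 groups, 5 libraries, eBayes with trend, two-sided, Benjamini-Hochberg over all 12769 genes); the log2 step was done here on the deposited values. The fit has 2 residual and, at the median, 2.571 prior degrees of freedom, and was tested on simulated data. Tables and figures used Python 3.11.15 and pandas 2.3.3. Gene spans and start sites came by symbol from RefSeq tables of GRCm38.p6, the assembly of mm10; 44 tested Rabs matched a span and 39 a promoter.

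Members, role groups and lists were chosen with earlier results of these data known. Values in every library are given for the 10 members per direction with the largest change against Input, the 6 per direction against IgG, and Rab1a, Rab2a, Rab3a, Rab5a, Rab5b, Rab5c, Rab6a, Rab7, Rab8a, Rab10, Rab11a, Rab11b, Rab14, Rab18, Rab23 and Rab35; other Rabs named in the text are the rest of the family. From each list the 2 highest and 2 lowest changes past the threshold were named; some genes that this picks are not reported here. Alternatives changed the scaling, the added constant, the filter, the variance model and the libraries in the fit.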

Additional observations from a re-analysis of the deposited data

Results flagged for a closer look

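Rab10os, an antisense transcript that overlaps Rab10 and was left out by the rule on names, had a mean abundance of 24.83 in the eIF4E libraries (27.5 and 22.2), against 14.4 in IgG and 21.4 and 22.1 in Input. It is set apart here because a signal lay outside the family and its mean was above each control library. The lower eIF4E library was close to the higher Input library, at 22.16 against 22.12. Smart-seq2 does not mark strand, so reads from Rab10 and Rab10os cannot be told apart where they overlap, and the part of Rab10os in the Rab10 values was not tested.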

How the results depend on the processing

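The counts of higher and lower Rabs were within 1.5 times the reported ones under all alternatives run, except that median-of-ratios scaling gave 15 lower Rabs for eIF4E against Input. For the lists against Input, whose alternatives were chosen after seeing the data, lower counts became 15 (GEFs, quantile), 3, 10 and 11 (effectors; common total, median of ratios, quantile), 1 and 1 (escort genes; common total, no filter), 5 (Rab-like, median of ratios) and 3, 13 and 5 (TBC-domain; common total, quantile, replicate block). Higher counts became 11 (TBC-domain, quantile) and 1 (Rab-like, no filter), and 6 and 8 for effectors against IgG (quantile, genes above 0 in all libraries). Leaving out 1 library gave 2 to 4 lower effectors, 0 to 3 escort genes, 3 to 4 TBC-domain genes, 7 to 9 GEFs, 6 to 7 Arf and Arl genes and 2 to 3 Rab-like genes. Leaving out 1 eIF4E or Input library gave 18 to 21 higher and 6 to 9 lower Rabs for eIF4E against Input, 26 to 28 and 11 for eIF4E against IgG, and 18 to 19 and 18 to 21 for IgG against Input. Fewer of all genes also passed for eIF4E against Input when 1 of these libraries was left out. Same-numbered eIF4E and Input libraries did not deviate together (correlation of deviations 0.0236). With so few libraries per group this cannot show whether they came from the same lysate. With the replicate number as a block, 21 Rabs were higher and 9 lower, and only the Rab3c call was lost. Added constants of 0.1 and 5 turned no sign, nor did the filters, the variance model, the block or the fit without IgG. Depth is unknown, which limits what can be said of low Rabs, and 1 IgG library limits both comparisons with it.

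Signs turned with the scaling for these log2 values, and the cause was not tested. For eIF4E against Input, a common total gave Rab11b 0.22, Rab13 0.094, Rab34 0.078 and Rab4a 0.079. Median-of-ratios scaling gave Rab24 -0.14, Rab29 -0.19, Rab40c -0.28, Rab43 -0.10, Rab5b -0.32, Rab6b -0.26 and Rab7 -0.12. Quantile normalization gave Rab11b 0.25, Rab12 -0.14, Rab24 -0.11, Rab29 -0.10, Rab32 -0.12, Rab36 -0.22, Rab3c -0.26, Rab40c -0.52, Rab43 -0.26 and Rab6b -0.39. For eIF4E against IgG, a common total gave Rab18 -0.027, Rab1b -0.33 and Rab6a -0.095, median-of-ratios scaling gave Rab1b -0.029, and quantile normalization gave Rab10 0.051, Rab11b -0.21, Rab1b -0.68, Rab34 0.055 and Rab43 -0.0084. For IgG against Input, a common total gave Rab11a 0.24, Rab11b 0.093, Rab31 0.29, Rab34 0.44, Rab39b 0.047 and Rab5b 0.055, median-of-ratios scaling gave Rab22a -0.13 and Rab9 -0.16, and quantile normalization gave Rab11a 0.35, Rab11b 0.46, Rab1b 0.34, Rab39b 0.79, Rab5a 0.69 and Rab9 -0.13. Rescaling also brought calls against Input. With a common total these were higher for Rab11b (0.22), Rab24 (0.40), Rab32 (0.47), Rab5b (0.24) and Rab6b (0.27). With median-of-ratios scaling they were lower for Rab11b (-0.34), Rab13 (-0.45), Rab34 (-0.46), Rab4a (-0.48), Rab5b (-0.32) and Rab6b (-0.26). With quantile normalization Rab11b was higher (0.25), and Rab13 (-0.32), Rab34 (-0.42), Rab40c (-0.52) and Rab6b (-0.39) were lower. Leaving out 1 library turned the sign of 7 values that had not passed. Their ranges were -0.047 to 0.0098 for Rab11b, -0.011 to 0.25 for Rab29, -0.10 to 0.13 for Rab40c and -0.050 to 0.054 for Rab5b against Input, -0.034 to 0.025 for Rab10 and -0.14 to 0.099 for Rab34 against IgG, and -0.074 to 0.29 for Rab9 in IgG against Input. For eIF4E against IgG, a common total brought calls as lower for Rab10 (-0.34), Rab12 (-0.48), Rab1b (-0.33) and Rab21 (-0.55). Quantile normalization did so for Rab12 (-0.75), Rab1b (-0.68) and Rab21 (-1.01). For IgG against Input, rescaling brought calls for Rab9, Rab22a, Rab34 and Rab39b. Some calls of that comparison also passed in the opposite direction, from lower to higher. These were Rab31 with a common total (0.29), and Rab11a (0.35), Rab11b (0.46), Rab1b (0.34) and Rab5a (0.69) with quantile normalization. For eIF4E against IgG, quantile normalization turned the Rab11b call from higher to lower (-0.21).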
